A study of Mus musculus with 24 samples.

Results

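Mouse embryonic stem (ES) cells lacking Smchd1 were compared with wild-type ES cells by RNA sequencing, across all genes and with most attention to genes other than those of the 2-cell embryo. The comparison takes 6 of the 18 biological samples of the series, 3 of wild type (WT) and 3 of the Smchd1 knockout (Smchd1 KO), chosen by their labelled genotype. Each of the 6 had been sequenced in 2 technical runs (12 of 24 libraries), and the runs of a sample were averaged before any test. The knockout columns carry only a running number, so their replicate numbers and the joining of runs (columns 1 and 4, 2 and 5, 3 and 6) are assumed from that order. Of 37310 gene entries, 15346 had at least 0.5 CPM (counts per 1e6 counts, a normalized read count) in at least 3 of the 6 samples and were tested, and 15307 of these lay outside the list of 2-cell-stage genes.

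Both genotypes were grown without feeder cells on gelatin in medium with serum and leukaemia inhibitory factor (LIF), and libraries were made from total RNA depleted of ribosomal RNA. The knockout carries no other labelled allele, and WT carries none. The labels name no sex, strain, clone or deletion site, so whether the 3 knockout replicates are separate clones is not given.

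SMCHD1 is a chromosomal protein related to the structural maintenance of chromosomes (SMC) family. It is known for keeping genes silent on the inactive X chromosome, at imprinted loci and in gene clusters such as the protocadherins, and for holding down the DUX transcription factor and the 2-cell-embryo genes that DUX switches on. ES cells come from the inner cell mass of the blastocyst. In serum and LIF they are held in self-renewal by a network of transcription factors around Oct4 (Pou5f1), Sox2 and Nanog.

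Each sequencing run held 16957263 to 74448358 gene reads in WT and 11399770 to 52908894 in Smchd1 KO. Agreement between libraries was measured by a noise ratio, the median squared difference between 2 libraries over what counting error alone gives. Repeat runs of a WT sample gave 1.41 to 1.53, and different WT samples gave 1.28 to 1.88, so WT replicates differed about as little as repeat runs. Repeat runs of a Smchd1 KO sample gave 1.35 to 1.56, and its replicates gave 3.29 to 13.1. Over all tested genes, log2 levels had a median standard deviation (SD) of 0.046 among WT and 0.120 among Smchd1 KO samples. Nothing in the labels says that the WT replicates were separate cultures, and p-values measure the spread between these samples, which may be partly technical.

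Transcript of the targeted gene was checked first. Smchd1 (ENSMUSG00000024054.5, chromosome 17) had 207, 203 and 207 CPM in WT against 46.2, 76.5 and 58.5 CPM in Smchd1 KO, a fall of 3.46-fold (log2 change -1.79, standard error (SE) 0.159, adjusted p = 0.000495). The 3 knockout samples lay far below the 3 WT samples, and each still held Smchd1 reads. Dux itself was too low to be tested, with 0.0410, 0.113 and 0.141 CPM in WT and 0.833, 0.847 and 0.410 CPM in Smchd1 KO. All 3 knockout values were above all 3 WT values. The 2-cell-stage list serves here only as a landmark: 39 of its 65 members were tested, and 38 of these were called higher. For 14 of the 38 the WT mean was under 0.5 CPM, so they passed the filter on low values only through Smchd1 KO, where they are high, and the count supports nothing.

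Changes were wide in number and mostly small in size. Of the 15346 tested genes, 3248 rose (21.2%) and 3515 fell (22.9%) at a Benjamini-Hochberg adjusted p under 0.05 in limma, where 8583 did not pass and the median log2 change of all genes was -0.00. With a change of at least 1.5-fold added to the rule, 1192 rose (7.77%) and 504 fell (3.28%), and with 2-fold 342 rose and 81 fell. Outside the 2-cell-stage list the 1.5-fold counts were 1154 and 504. Of the 1192 genes that rose at least 1.5-fold, 164 had a WT mean under 0.5 CPM and so passed the filter on low values only through Smchd1 KO.

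The share of rises among the 1.5-fold calls was 70.3% as deposited and 55.7% after quantile normalization. A single fit of all 4 genotypes of the same table (with Dux KO and Double KO added), which shares 1 estimate of the spread over all 12 samples, called 144 of 16200 genes (0.889%), 105 higher and 39 lower. Of the genes named below by a fixed rule, 148 of 156 passed with 2 genotypes and 23 of these also passed in the fit of 4, among them 1700013H16Rik, Ankrd34a, Cntfr, Ddx60, Dkk3, Gm11543, Gm12800, Gm4840, Gm5576, Gm5580, Gm6189, Hist2h2ac, Hist2h4, Hnf4a, Hoxa3, Hspa1a, Meox1, Smchd1, Spna1, Srxn1, Tril and Zdbf2. For every other gene called below, the call rests on the fit of 2 genotypes. Counts of list members are to be read against the 21.2% higher and 22.9% lower of all tested genes, and a share near these is not a result about the list. Members with a WT mean under 0.5 CPM could pass the filter only through Smchd1 KO, and outside the 2-cell-stage list there were at most 3 in any list. In the same way, falls with every Smchd1 KO value under 0.5 CPM passed the filter only through WT, where they are high. Meox1, Cdx2, Hoxa2, Hoxa9 and Wnt8a are among these.

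**Figure D1:**
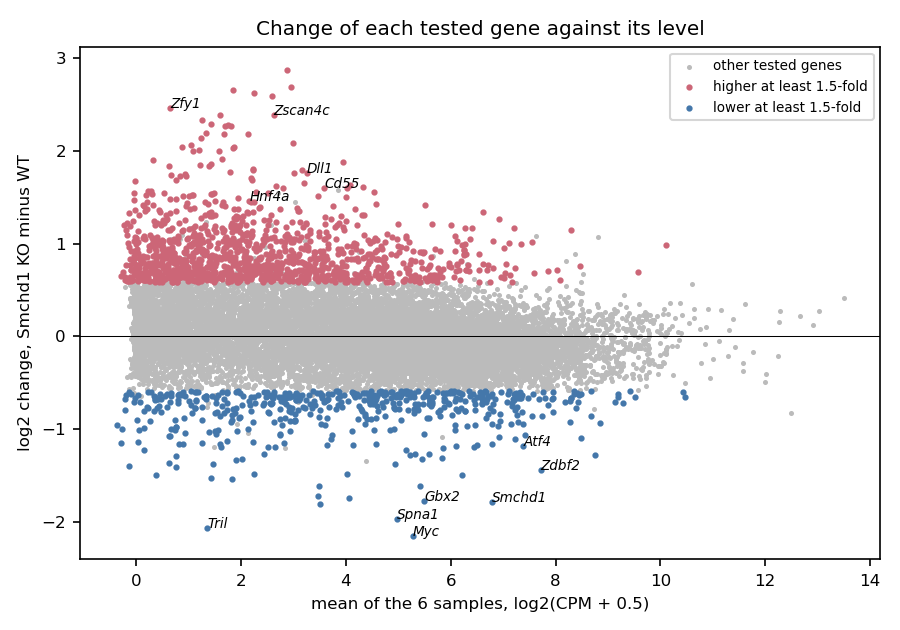
Log2 change between Smchd1 KO and WT (vertical axis) against the mean log2(CPM + 0.5) of the 6 samples (horizontal axis) for the 15346 tested genes, with genes past adjusted p 0.05 and 1.5-fold in color. Myc, Tril and Spna1 lie lowest, and 533 of the 1192 genes called higher had a WT mean under 2 CPM.

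One chromosome moved as a whole in a single sample. The median deviation from the WT mean over the 719 tested genes of chromosome 6 was -0.47 in Smchd1 KO replicate 2, and no other sample deviated by more than 0.061 in median on any chromosome from 1 to 19 or on X. On chromosome 6, 9.46% of tested genes fell at least 1.5-fold, against 2.22% to 3.90% on the other autosomes. Falls of chromosome 6 genes are therefore given below together with their value without that replicate. The X chromosome, where SMCHD1 has its best-known role, had medians of 0.059, 0.022 and 0.061 in the 3 knockout samples. Of its 553 tested genes, 51 rose and 17 fell at least 1.5-fold (9.22% and 3.07%). Xist, the RNA that coats the inactive X, was low in both genotypes, at 1.24, 0.971 and 1.11 CPM in WT against 1.86, 1.73 and 1.92 CPM in Smchd1 KO (log2 change 0.54, adjusted p = 0.00578), without overlap between the groups. The Y-linked gene Ddx3y was read in all 6 samples, at 78.9 to 112 CPM. Whether any of these cells holds an inactive X was not tested, so the X values do not measure the silencing of one.

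**Figure D2:**
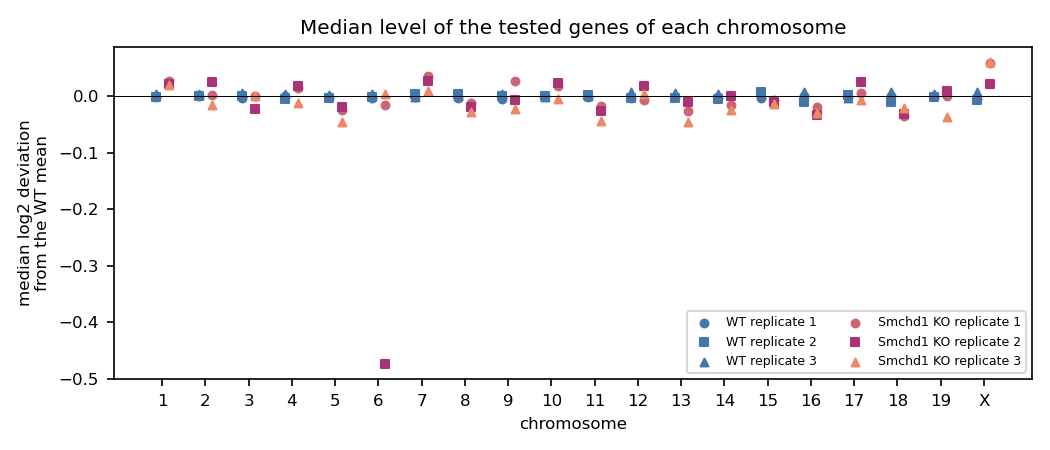
Median log2 deviation from the WT mean (vertical axis) over the tested genes of each chromosome (horizontal axis) for the 3 WT and 3 Smchd1 KO samples, 1 point a sample. Chromosome 6 in Smchd1 KO replicate 2 sits at -0.47 and every other point lies within 0.061 of 0.

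The largest rises outside the 2-cell-stage list, among genes called in every leave-one-out fit with no overlap between groups, began with the Y-linked zinc finger gene Zfy1. Zfy1 had 0.164, 0.178 and 0.153 CPM in WT against 2.37, 5.94 and 2.15 CPM in Smchd1 KO, a 5.51-fold rise (SE 0.318 on the log2 scale, adjusted p = 0.00136). Its 3 knockout samples were all above WT, with replicate 2 highest, and it passed the filter on low values only through Smchd1 KO. Every fold given here was fitted on log2(CPM + 0.5), which understates the change of low genes. For Zfy1 the log2 change was 2.46 on that scale and 4.415 in the count test edgeR. Ube1y1, a Y-linked ubiquitin-activating enzyme gene, had 1.98, 1.96 and 2.12 CPM in WT against 6.93, 11.4 and 7.03 CPM in Smchd1 KO (3.46-fold, adjusted p = 0.000688), and here too replicate 2 was highest. Zfy1 and Ube1y1 share 42.8% and 47.7% of their 50-base words with another gene, so their single levels are uncertain.

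Dll1 encodes a Notch ligand and had 4.99, 4.87 and 4.25 CPM in WT against 16.6, 15.6 and 19.5 CPM in Smchd1 KO. The groups did not overlap and the rise was 3.40-fold (log2 change 1.76, SE 0.106, adjusted p = 0.000325). Rassf4, a Ras-association domain gene on chromosome 6, rose 3.51-fold from 2.02 ± 0.0287 to 8.34 ± 0.772 CPM (SD, n = 3), against the fall of its chromosome in replicate 2. Ddx60, an RNA helicase gene of antiviral responses, went from 1.11 ± 0.201 to 5.63 ± 1.43 CPM (3.77-fold, adjusted p = 0.000510), and the butyrophilin-like gene Btnl7 from 4.33 ± 0.468 to 16.3 ± 2.63 CPM (3.46-fold, adjusted p = 0.000343). Ankrd1, a target of the SRF and YAP pathways, had 3.68, 4.24 and 3.76 CPM in WT against 10.6, 9.51 and 29.2 CPM in Smchd1 KO: all 3 knockout samples were above WT, but replicate 3 was far above the other two. The inducible heat shock gene Hspa1a went from 0.561 ± 0.0471 to 3.06 ± 0.665 CPM (3.33-fold). It shares 60.4% of its words with another gene, and its neighbour copy Hspa1b rose 2.16-fold.

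The other 7 of the 15 largest rises were 1700013H16Rik, Gm6189, Gm4840, Gm5580, Gm5576, Gm12800 and Gm11543, which are poorly characterised genes and pseudogenes. They rose by 1.73 to 2.29 on the log2 scale, and all 7 are among the 9 of the 15 largest rises that passed in the fit of 4 genotypes. Their means were 0 to 0.329 CPM in Dux KO and 0 to 0.261 CPM in Double KO, below their WT means of 0.483 to 0.989 CPM. All 7 were thus lowest in the genotypes without Dux, and whether they depend on Dux was not tested. In each of these genes except Gm4840 replicate 1 was the highest knockout sample, and replicate 3 was the lowest in all 7. Gm12800 and Gm11543 lie in runs of risen neighbours that include members of the 2-cell-stage list.

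The largest fall was that of Myc, the growth-promoting transcription factor. Myc had 85.3, 74.9 and 83.9 CPM in WT against 20.9, 12.5 and 21.9 CPM in Smchd1 KO, a 4.44-fold fall (log2 change -2.15, SE 0.199, adjusted p = 0.000510). All 3 knockout samples were far below the WT samples. Spna1, the erythroid alpha spectrin, had 64.8, 57.7 and 63.6 CPM in WT against 13.3, 19 and 14.7 CPM in Smchd1 KO, and fell 3.91-fold (SE 0.125, adjusted p = 0.000325). Its 3 knockout samples lay close together, well below WT. Tril, an accessory protein of Toll-like receptors on chromosome 6, had 5.10, 4.58 and 4.58 CPM in WT against 0.649, 0.805 and 0.811 CPM in Smchd1 KO (4.19-fold lower, adjusted p = 0.000265). Its log2 change was -2.10 without replicate 2, so the fall was as large without the sample in which the chromosome is low.

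Further falls were in receptors and transport. Cntfr, the ciliary neurotrophic factor receptor that signals through the LIF receptor chain, went from 19.25 ± 1.6 to 6.19 ± 2.35 CPM (3.07-fold, adjusted p = 0.00202). Slc7a7, a transporter of cationic amino acids, had 129, 115 and 127 CPM in WT against 49.3, 33.1 and 50.8 CPM in Smchd1 KO (2.81-fold, adjusted p = 0.000713), with no overlap. Robo4, a roundabout-family receptor, fell 3.30-fold and Ankrd34a fell 2.90-fold. Among developmental transcription regulators, Eya1 went from 7.43 ± 0.636 to 2.39 ± 0.736 CPM (2.79-fold, adjusted p = 0.00109) and the homeobox gene Meox1 from 1.68 ± 0.0917 to 0.276 ± 0.0931 CPM (2.82-fold, adjusted p = 0.000399). Meox1 passed the filter on low values only through WT, and its log2 change was -1.50 in limma and -2.34 in edgeR. Gm15564 is called lower, but its WT values of 23.4, 22.8 and 51.1 CPM are uneven, and with technical run 1 alone its log2 change was -0.43 and it lost the call.

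**Figure D3:**
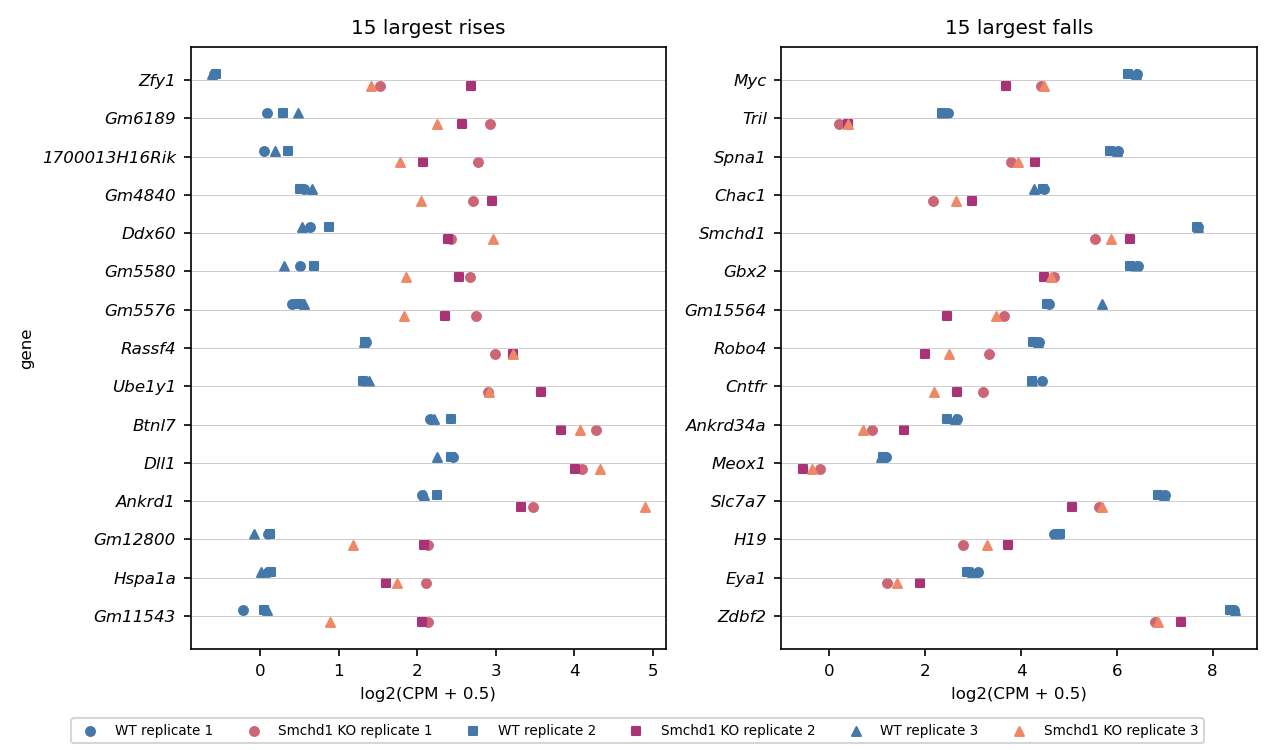
Level of the 15 largest rises (left) and 15 largest falls (right) outside the 2-cell-stage list in each sample, as log2(CPM + 0.5) on the horizontal axis, blue for WT and purple to orange for Smchd1 KO, marker shape for the replicate. The groups do not overlap in any of the 30 genes, which the rule that named them requires, and in Ankrd1 replicate 3 stands above the other knockout samples.

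Factors of the pluripotency network moved unevenly. The factors at its centre did not pass: Pou5f1 stood at 666 ± 19.6 CPM in WT against 701 ± 64.2 CPM in the knockout (SD, n = 3, limma adjusted p = 0.430), Sox2 at 419.6 ± 8.88 and 423 ± 51.5 CPM (adjusted p = 0.973) and Nanog at 401 ± 9.30 and 456 ± 72.9 CPM (adjusted p = 0.239). Nanog lies on chromosome 6, and its log2 change was 0.09 without Smchd1 KO replicate 2. Around them, 13 of 21 tested genes of core pluripotency and self-renewal fell, 2 rose and the median log2 change was -0.36, against 22.9%, 21.2% and -0.00 over all genes. The knockout replicates had list medians of -0.39, -0.24 and -0.38. Beside Myc, the falls included L1td1, an RNA-binding protein of ES cells, which had 813, 769 and 828 CPM in WT against 466, 568 and 438 CPM in Smchd1 KO (1.65-fold, adjusted p = 0.00143). Trp53, the p53 gene, had 321, 309 and 309.6 CPM in WT against 181, 238 and 178 CPM in Smchd1 KO (1.59-fold, adjusted p = 0.00299). In both genes every knockout sample was below every WT sample, with replicate 2 nearest to WT.

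Tcf7l1, a Wnt-pathway repressor on chromosome 6, fell 1.56-fold and had a log2 change of -0.66 without replicate 2. The rises were Zfp143 and Tdgf1, the Nodal co-receptor Cripto. Tdgf1 had 984, 1093 and 1007 CPM in WT against 1479.5, 1302 and 1184 CPM in Smchd1 KO, and the call was lost without WT replicate 1 or 3 (adjusted p = 0.0592 to 0.0634).

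Of 30 tested naive pluripotency genes, 11 fell and 1 rose (36.7% and 3.33%, median -0.17). With quantile normalization the median was -0.0637. Gbx2, a homeobox factor downstream of LIF and STAT3, had 87.1, 76.8 and 84.5 CPM in WT against 25.4, 22.0 and 24.2 CPM in Smchd1 KO. All knockout values were under a narrow WT range, and the fall was 3.42-fold (SE 0.0716, adjusted p = 0.000128). Klf5 had 170.4, 159.8 and 169 CPM in WT against 82.0, 94.1 and 80 CPM in Smchd1 KO (1.95-fold, adjusted p = 0.000325), and Klf4, at 193 ± 2.70 CPM in WT, fell 1.56-fold. Both are Krüppel-like factors of self-renewal. Dppa2, which acts with Dppa4 on promoters of early embryonic genes, fell 1.53-fold. Fgf4 was the riser. The 1 rise became 4 without Smchd1 KO replicate 2 and 6 without Smchd1 KO replicate 3. The 11 falls became 6 without WT replicate 1, 2 or 3. Of 18 primed pluripotency genes 3 fell and 1 rose, with the falls in Cdh2, Wnt8a and Dnmt3a and without a shared direction (median -0.01, which changes sign under other scalings). The 1 rise became 0 without WT replicate 1 or 3, 2 without Smchd1 KO replicate 1 or 3 and 3 without Smchd1 KO replicate 2. The 3 falls became 8 without Smchd1 KO replicate 2.

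Through the FGF and ERK pathway FGF4 is known to push ES cells towards lineage entry. Of its 38 tested genes 14 fell and 7 rose (36.8% and 18.4%, against 22.9% and 21.2% of all genes), with a median of -0.13. Dusp6, an ERK phosphatase, had 116, 107 and 111 CPM in WT against 55.9, 46.3 and 69.8 CPM in Smchd1 KO (1.96-fold lower, SE 0.133, adjusted p = 0.00168), with the groups apart. The pathway inhibitors Spry4 (-0.93), Spry2 (-0.73), Spred1 (-0.67) and Spred2 (-0.52), and the ETS gene Etv1 (-0.64) fell too, as log2 changes. The immediate early gene Fos went the other way, from 1.99 ± 0.194 to 4.51 ± 0.697 CPM (2.00-fold, adjusted p = 0.00134), as did the ligand Fgf1 (2.60-fold) and Fgf4 (0.42 on the log2 scale). The 7 rises became 4 without WT replicate 1 and 12 without Smchd1 KO replicate 2.

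Genes of the Notch signalling list rose in 9 of 25 cases and fell in 4 (36% and 16%, median 0.12). The 4 falls became 2 without WT replicate 3. With the ligand Dll1 came the receptor Notch3 (0.56), the ligand Jag1 (0.41), the HES family gene Hes6 (0.62) and the target Hey2 (0.82), as log2 changes. The receptor Notch4 had 32.7, 34.2 and 30.6 CPM in WT against 22.4, 13.5 and 13.3 CPM in Smchd1 KO and fell 2.01-fold (adjusted p = 0.00533), and Dlk1, a noncanonical ligand that is also imprinted, changed by -0.59.

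Wnt genes were called about as often as all genes, with 9 of 47 higher and 13 lower (19.15% and 27.7%, against 21.2% and 22.9%). Wnt5a, a noncanonical ligand, had 0.877, 1.29 and 1.06 CPM in WT against 2.64, 4.71 and 4.04 CPM in Smchd1 KO (2.68-fold, adjusted p = 0.00184), with all 3 knockout samples above WT. The secreted protein Dkk3 rose 2.59-fold (adjusted p = 0.000638). Its relative Dkk1, a Wnt antagonist, fell 2.10-fold and Notum, an enzyme that inactivates Wnt proteins, fell 2.03-fold from 10.3 ± 0.0889 to 5.0 ± 1.52 CPM. The 9 rises became 5 without WT replicate 3.

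For Nodal, BMP and TGF-beta signalling the counts were near those of all genes, with 7 higher and 9 lower of 43 (16.3% and 20.9%), and the median changes sign under other scalings. The 7 rises became 2 without WT replicate 1 and 4 without WT replicate 3. The 9 falls became 4 without WT replicate 1, 2 or 3. Bmp7, a BMP ligand, rose 1.71-fold. Bmp4 had 34.5, 34.9 and 36.3 CPM in WT against 22.0, 8.76 and 19.23 CPM in Smchd1 KO (log2 change -1.16, adjusted p = 0.0192). For this gene the call was lost without WT replicate 1, 2 or 3 (adjusted p = 0.0606 to 0.0651).

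In the LIF, cytokine and Toll-like receptor list 7 of 30 rose and 7 fell (23.3% each way, near the share of all genes). The 7 rises became 3 without WT replicate 1, 4 without Smchd1 KO replicate 1 and 12 without Smchd1 KO replicate 2. The 7 falls became 4 without WT replicate 1 or 3. Apart from Tril and Cntfr, the inhibitor Socs2 of cytokine signalling fell 1.47-fold, from 92.2 ± 2.37 to 62.6 ± 2.20 CPM. Stat3, the factor that LIF activates, fell by a log2 change of -0.20, and the call was lost without WT replicate 1, 2 or 3 or Smchd1 KO replicate 1 (adjusted p = 0.0524 to 0.0745). Lifr and Socs3 did not pass (log2 changes 0.00 and 0.18).

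Genes for amino acid supply were lower in most cases. When amino acids run short or proteins misfold, cells are known to translate the transcription factor ATF4, which then raises transporters, aminoacyl-tRNA synthetases and enzymes of serine and one-carbon metabolism through composite C/EBP-ATF elements. Promoters of 33 of the 41 tested list members were found in RefSeq sequences of GRCm38.p6, and the 250 bases before the start were searched on both strands for TGATGNAA, an ATF4-type element chosen after the changes had been seen. It was present in 8 of the 33 (24.2%), in 6 of the 24 promoters of members that fell (25%, about the share of the whole list), and in 954 of all 27025 promoters (3.53%). The list was written from gene classes that ATF4 is known to raise. Its share against all promoters could follow from that choice and supports nothing. The stretches of 100 bases that hold it in those 6 genes are shown for the letters themselves, 5′ to 3′ on the gene's strand, with the element in capitals in either orientation. No binding was measured, and a match is not a site.
Chac1, chr2:119351003-119351102 (plus strand): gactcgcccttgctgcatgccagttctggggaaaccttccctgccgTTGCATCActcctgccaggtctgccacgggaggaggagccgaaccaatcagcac
Slc7a11, chr3:50443617-50443716 (minus strand): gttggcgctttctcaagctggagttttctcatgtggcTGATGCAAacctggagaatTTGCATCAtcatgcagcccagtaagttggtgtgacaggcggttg
Gars, chr6:55037901-55038000 (plus strand): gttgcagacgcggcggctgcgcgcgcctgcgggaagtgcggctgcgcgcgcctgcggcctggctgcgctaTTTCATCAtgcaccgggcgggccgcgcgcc
Asns, chr6:7693210-7693309 (minus strand): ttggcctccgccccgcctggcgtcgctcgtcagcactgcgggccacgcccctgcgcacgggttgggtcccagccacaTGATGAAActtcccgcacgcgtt
Tars, chr15:11399659-11399758 (minus strand): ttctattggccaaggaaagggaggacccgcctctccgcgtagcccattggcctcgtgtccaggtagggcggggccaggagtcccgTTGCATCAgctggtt
Aars, chr8:111033684-111033783 (plus strand): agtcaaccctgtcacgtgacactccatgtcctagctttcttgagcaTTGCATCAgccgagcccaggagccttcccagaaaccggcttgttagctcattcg

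The gene Slc7a11, the cystine transporter, has 2 copies of the element in opposite orientation. The first bases of the element lie 193 bases before the start of Chac1, 112 before that of Aars, 30 before that of Gars, 23 before that of Asns and 15 before that of Tars, and in Slc7a11 66 and 47 bases before it.

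Of the 41 tested members 31 fell and 3 rose (75.6% and 7.32%, against 22.9% and 21.2% of all genes), with a median log2 change of -0.34. Medians in the 3 knockout replicates were -0.43, -0.28 and -0.38, and 24 (without WT replicate 1) to 33 (without Smchd1 KO replicate 2) members fell when 1 replicate was left out. Atf4 itself had 259, 252 and 243 CPM in WT against 101, 102 and 131 CPM in Smchd1 KO, a 2.26-fold fall (SE 0.0984, adjusted p = 0.000441). Its 3 knockout samples all lay far below WT. Chac1, which degrades glutathione, had 21.8, 21.5 and 18.8 CPM in WT against 3.95, 7.38 and 5.77 CPM in Smchd1 KO (3.51-fold lower, adjusted p = 0.000775). Trib3, a pseudokinase that feeds back on ATF4, had 49.7, 49.5 and 47.5 CPM in WT against 15.8, 23.0 and 17.6 CPM in Smchd1 KO (2.59-fold, adjusted p = 0.000506). In both genes the groups were far apart and replicate 2 was the highest knockout sample.

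Slc7a11 had 2.25, 2.32 and 2.29 CPM in WT against 0.749, 0.684 and 0.801 CPM in Smchd1 KO (2.24-fold, adjusted p = 0.000395). Other transporters of the list were lower as well: Slc7a1 (-0.80), Slc6a9 (-0.83), Slc7a5 (-0.64) and Slc3a2 (-0.34), as log2 changes. Each of the 8 aminoacyl-tRNA synthetase genes in the list fell, from -0.59 in Gars to -0.28 in Wars. Gars lies on chromosome 6 and changed by -0.47 without replicate 2. Asns, asparagine synthetase on the same chromosome, changed by -0.45 and by -0.30 without replicate 2, and the call was lost without WT replicate 1, 2 or 3 (adjusted p = 0.0576 to 0.0611). Enzymes of serine synthesis fell by less, with Psat1 at -0.40 and Phgdh at -0.19, and for Phgdh the call was lost without WT replicate 1 or 2 (adjusted p = 0.0556 to 0.0602). The mitochondrial folate enzyme Mthfd2, on chromosome 6, was at -0.86, and at -0.67 without replicate 2. The 3 rises were Ddit3 (0.51), Gdf15 (0.58) and Ddit4 (1.03). For Ddit3 the call was lost without WT replicate 1, 2 or 3 (adjusted p = 0.0524 to 0.0914). Ddit4 also responds to p53 and to low oxygen, and Gdf15 is also on the p53 list.

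Genes known to be activated by p53 rose in 29 of 43 cases and fell in 4 (67.4% and 9.30%; median 0.40), while Trp53 itself fell. The replicate medians were 0.39, 0.27 and 0.49, and 24 to 32 members rose when 1 replicate was left out. Cdkn1a, the p21 inhibitor of the cell cycle, went from 53.3 ± 2.10 to 83.3 ± 3.04 CPM (log2 change 0.64, adjusted p = 0.000366). Btg2, an antiproliferative gene, had 48.0, 49.0 and 48.5 CPM in WT against 91.4, 79.9 and 109 CPM in Smchd1 KO (1.90-fold, adjusted p = 0.000813), with every knockout sample above WT. The death receptor gene Fas rose 1.97-fold from 0.476 ± 0.0520 CPM, and Trp73, the p53 relative, rose 1.89-fold. Bax, a cell death gene, did not pass (0.01). The falls included the kinase gene Plk3 (-0.73). The 4 falls became 2 without WT replicate 1, 2 or 3 or Smchd1 KO replicate 3.

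Glycolysis and hypoxia genes rose in 23 of 37 cases and fell in 1 (62.2% and 2.70%; median 0.37; replicate medians 0.39, 0.34 and 0.41; 20 to 28 rises without 1 replicate). Many are targets of the HIF factors that low oxygen stabilises. Aldoc, an aldolase, had 18.7, 23.5 and 19.5 CPM in WT against 50.6, 42.2 and 52.5 CPM in Smchd1 KO (2.32-fold, adjusted p = 0.000506). P4ha1, a prolyl hydroxylase of collagen, had 74.3, 86.7 and 73.9 CPM in WT against 176, 142 and 265 CPM in Smchd1 KO (2.40-fold, adjusted p = 0.00313). In both, all knockout samples were above WT, and replicate 3 was highest. Car12, a carbonic anhydrase, rose 2.27-fold and Ddit4 2.04-fold. Enzymes with many reads rose by less, with Pgk1 at 0.72, Aldoa at 0.56 and Ldha at 0.36, while Gapdh (-0.04) and Eno1 (0.09) did not pass. The fall was that of Kdm3a (-0.32), a histone demethylase gene on chromosome 6, at -0.27 without replicate 2. The 1 fall became 2 without Smchd1 KO replicate 2 and 3 without Smchd1 KO replicate 3.

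Collagen-modifying enzymes overlapped with that group. In the list of collagens and basement membrane 13 of 38 rose and 2 fell (34.2% and 5.26%, median 0.33). The 13 rises became 7 without WT replicate 1. The 2 falls became 1 without WT replicate 3. P4ha2 had 19.24, 21.0 and 19.195 CPM in WT against 39.1, 38.5 and 49.5 CPM in Smchd1 KO (2.10-fold, adjusted p = 0.000546) and Plod2, a lysyl hydroxylase, had 129, 140.4 and 123 CPM in WT against 234, 222 and 356 CPM in Smchd1 KO (2.02-fold, adjusted p = 0.00336), beside P4ha1. The groups did not overlap in either gene.

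Genes of the germ line, many of them silent in somatic cells through promoter DNA methylation, rose in 29 of 56 cases and fell in 4 (51.8% and 7.14%; median 0.41; replicate medians 0.52, 0.37 and 0.25). Leaving out 1 replicate gave 21 to 34 rises. The 4 falls were all lost without WT replicate 1, 2 or 3. Smc1b, a meiotic cohesin subunit, had 51.5, 52.8 and 49.5 CPM in WT against 119, 106 and 125 CPM in Smchd1 KO (2.25-fold, SE 0.0670, adjusted p = 0.000322). Mael, a factor of the piRNA pathway that guards against transposons, had 9.33, 9.87 and 9.82 CPM in WT against 26.2, 23.1 and 19.07 CPM in Smchd1 KO (2.27-fold, adjusted p = 0.000561). Both had knockout samples well above a narrow WT range. Dpep3, a dipeptidase gene of the testis, rose 2.88-fold from 0.734 ± 0.0786 CPM, and Tuba3b, a testis tubulin on chromosome 6 with 29.5% of its words in another gene, rose 2.86-fold. Dazl (1.09), Sohlh2 (1.10) and the CTCF paralogue Ctcfl (1.08) rose too. Meiotic Stra8, piRNA-pathway Piwil2 and the germ cell helicase Ddx4 did not pass (-1.34, 0.11 and 0.15).

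Interferon and RNA-sensing genes rose in 13 of 38 cases and fell in 6 (34.2% and 15.8%, median 0.21). The 13 rises became 8 without WT replicate 1. Tap1, a peptide transporter for antigen presentation, had 5.18, 5.69 and 4.48 CPM in WT against 10.7, 9.57 and 12.5 CPM in Smchd1 KO (2.03-fold, adjusted p = 0.00113). Oas3, a sensor of double-stranded RNA, had 5.50, 6.29 and 5.69 CPM in WT against 11.9, 11.5 and 10.1 CPM in Smchd1 KO (1.85-fold, adjusted p = 0.000723). The nucleic-acid sensor Zbp1 rose 1.95-fold, and the RNA sensor gene Ddx58 (-0.47) and Irf3 (-0.34) were among the falls.

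At imprinted loci, where SMCHD1 is known to act, 11 of 57 tested genes rose and 18 fell (19.3% and 31.6%, against 21.2% and 22.9% of all genes), and the median (0.02) changes sign under other scalings. The 11 rises became 6 without WT replicate 1 or 3, 7 without WT replicate 2 and 18 without Smchd1 KO replicate 2. H19, a noncoding RNA of the maternal allele, had 25.4, 27.7 and 26.5 CPM in WT against 6.39, 12.7 and 9.36 CPM in Smchd1 KO (2.80-fold lower, adjusted p = 0.00192). Zdbf2, expressed from the paternal allele, had 350.5, 329 and 356 CPM in WT against 110.1, 161 and 115 CPM in Smchd1 KO (2.71-fold lower, SE 0.135, adjusted p = 0.000532). Every knockout sample was below WT in both genes, and replicate 2 was nearest to WT. Nnat fell 2.25-fold. Mest, on chromosome 6, had 254, 239.7 and 249 CPM in WT against 126, 119.9 and 109 CPM in Smchd1 KO, and its log2 change was -1.06 in all samples and -1.08 without replicate 2. Among the rises, Dio3, a deiodinase gene, had 0.690, 0.644 and 0.841 CPM in WT against 1.70, 1.66 and 1.84 CPM in Smchd1 KO (log2 change 0.87). Igf2, the neighbour of H19, did not pass (0.42), nor did Airn (0.44). Peg10, on chromosome 6, did not pass either (0.24), with 0.65 without replicate 2, where it was called higher.

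Of 25 clustered protocadherins in the table only 2 reached the level for testing. Pcdhgc5 had 115, 114 and 116 CPM in WT against 105, 109 and 95.6 CPM in Smchd1 KO. Pcdha11 had 0.504, 0.319 and 0.459 CPM in WT against 1.21, 1.41 and 1.24 CPM in Smchd1 KO and rose 1.93-fold (adjusted p = 0.00114), from a WT level under 0.5 CPM in mean. Pcdha11 shares 60.1% of its words with other genes, so reads of the cluster cannot be told apart by member. Pcdhgc5 had a log2 change of -0.16, and the call was lost without WT replicate 1, 2 or 3 or Smchd1 KO replicate 1 or 3 (adjusted p = 0.0698 to 0.145). In the Xlr and Rhox families of the X chromosome, Rhox13 was the called gene of 6. Rhox13 had 3.37, 3.65 and 3.64 CPM in WT against 8.27, 6.96 and 4.37 CPM in Smchd1 KO, and the call was lost without WT replicate 1, 2 or 3 or Smchd1 KO replicate 1 (adjusted p = 0.0582 to 0.0786).

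Hox genes, which specify position along the body axis, split by cluster. Of 15 tested, 9 fell and 4 rose. The falls were 8 genes of the Hoxa cluster on chromosome 6 and Hoxb9, and the rises were Hoxd13, Hoxd8, Hoxd1 and Hoxc13. Hoxa3 had 2.18, 2.54 and 1.80 CPM in WT against 0.787, 0.482 and 0.515 CPM in Smchd1 KO (2.45-fold, adjusted p = 0.00104), with all knockout samples below WT. Without Smchd1 KO replicate 2, in which chromosome 6 is low, its log2 change was -1.22, and those of Hoxa7, Hoxa9 and Hoxa2 were -0.83, -0.88 and -1.06. The numbers of falls and rises were 9 and 4 in that fit too, and 6 fell without WT replicate 1 or 2. The 4 rises became 2 without WT replicate 1 or 3 or Smchd1 KO replicate 1. All these genes had WT means under 10 CPM, and with a filter of 2 CPM the list median turned from -0.77 to 0.43.

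Chromatin silencing factors that work with SMCHD1 or beside it were slightly lower, with falls in 11 of 23 (47.8%, against 22.9% of all genes). The median was -0.18, and -0.0745 after quantile normalization. The 11 falls became 7 without WT replicate 1 or 3 and 17 without Smchd1 KO replicate 2. The histone chaperone Daxx had 87.2, 80.5 and 78.3 CPM in WT against 55.7, 64.4 and 61.1 CPM in Smchd1 KO (1.36-fold lower, adjusted p = 0.00242). Trim28, the corepressor of KRAB zinc finger proteins, had 1426, 1349.9 and 1418 CPM in WT against 1006, 1200.2 and 940.2 CPM in Smchd1 KO (1.34-fold, adjusted p = 0.00848). Knockout samples were below WT in both. Lrif1, the SMCHD1-binding partner listed as 4933421E11Rik, fell 1.39-fold.

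Among 22 DNA methylation factors, 8 fell and 2 rose (36.4% and 9.09%, against 22.9% and 21.2% of all genes, median -0.14). After quantile normalization the median was -0.0561. The 2 rises became 1 without WT replicate 1, 2 or 3 or Smchd1 KO replicate 1 or 3. The 8 falls became 5 without WT replicate 1, 2 or 3 and 13 without Smchd1 KO replicate 2. Dnmt3a, a de novo DNA methyltransferase, had 374, 367 and 371 CPM in WT against 289, 199.6 and 264 CPM in Smchd1 KO (1.5-fold lower, adjusted p = 0.00879). Dnmt1 (-0.10) and Dnmt3b (-0.15) did not pass. Gadd45b rose 1.61-fold, and Gadd45a on chromosome 6 had 80.6, 78.4 and 79.7 CPM in WT against 53.8, 34.1 and 60.0 CPM in Smchd1 KO (adjusted p = 0.0185). Without Smchd1 KO replicate 2 its log2 change was -0.48, and the call was lost without WT replicate 1, 2 or 3 (adjusted p = 0.0579 to 0.0634).

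Levels of lineage genes differed most between the knockout samples themselves. Primitive endoderm genes were highest in Smchd1 KO replicate 3: Gata4, a defining factor, had 14.5, 13.3 and 14.6 CPM in WT against 16.1, 9.62 and 42.5 CPM in Smchd1 KO, and the basement membrane gene Lama1 had 294, 280.1 and 296 CPM in WT against 367, 266 and 1005 CPM in Smchd1 KO. Replicate 3 was the highest of the 6 samples for both and replicate 2 the lowest. The collagen Col4a1 had 307, 310.4 and 313 CPM in WT against 533, 343 and 1522 CPM in Smchd1 KO (log2 change 1.07, adjusted p = 0.107), and Cubn, an endocytic receptor of visceral endoderm, had 78.6, 73.5 and 82.0 CPM in WT against 65.7, 22.4 and 214 CPM in Smchd1 KO (adjusted p = 0.845). The endoderm list medians in the 3 knockout replicates were 0.35, -0.04 and 1.45. The 17 endoderm markers summed to 890.4 to 931 CPM in WT and 848 to 3634 CPM in Smchd1 KO, and each was above 0 in at least 1 sample. In bulk RNA, fewer or more cells of a type and less or more RNA per cell cannot be told apart.

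The exception was Hnf4a, a transcription factor of visceral endoderm and liver. Hnf4a had 2.28, 2.12 and 2.16 CPM in WT against 5.93, 7.70 and 7.23 CPM in Smchd1 KO, a 2.76-fold rise (SE 0.112, adjusted p = 0.000372), high in all 3 knockout samples and in no WT sample. It was the called gene among the 14 tested endoderm markers. Of the wider list of 26 endoderm genes 7 rose (26.9%, against 21.2% of all genes). The 7 rises became 4 without WT replicate 1 or 3 and 15 without Smchd1 KO replicate 2.

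**Figure D4:**
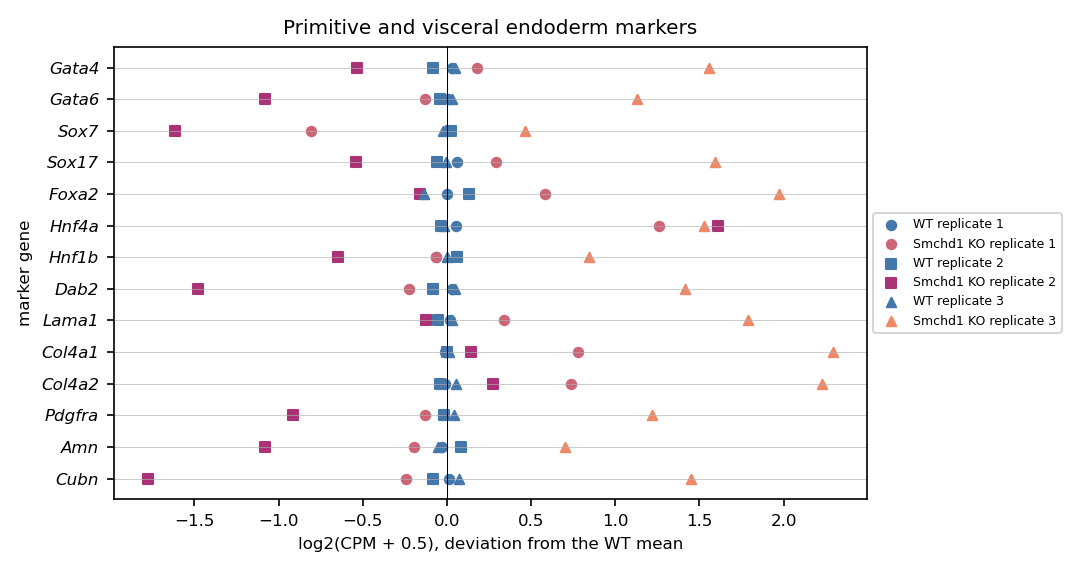
Deviation of each sample from the WT mean on the log2(CPM + 0.5) scale (horizontal axis) for the 14 tested markers of primitive and visceral endoderm (vertical axis), 1 point a sample. Smchd1 KO replicate 3 (triangles in orange) is right of the WT samples for every marker, replicate 2 (squares) is left of them for 11 of the 14, and Hnf4a is higher in all 3 knockout samples.

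Markers of other cell types moved less evenly. The 15 fibroblast markers, which test for cells other than ES cells, summed to 39.7 to 41.8 CPM in WT and 48.7 to 98.1 CPM in Smchd1 KO. Of 8 tested, 4 rose: Col1a2, Col6a1, Pdgfrb and Twist1. Another 4 of the 15, Dcn, Lum, Twist2 and Prrx1, stayed under 0.5 CPM in every sample and were not tested. Mean levels of Dcn went from 0.133 to 0.0126 CPM in the knockout, and those of Twist2 from 0.136 to 0.0857 CPM. Prrx1 was level (0.140 and 0.139 CPM) and Lum was near 0. The means of Col3a1, Postn and Lox, also untested, were higher in the knockout, with replicate 2 highest. For Col1a2 the call was lost without WT replicate 1 (adjusted p = 0.0601). Col1a1 had 5.11, 4.84 and 5.31 CPM in WT against 8.43, 27.0 and 5.44 CPM in Smchd1 KO, and its highest sample, like that of Acta2 at 12.5, 32.3 and 11.8 CPM in the knockout, was replicate 2. For trophoblast markers the sums were 64.6 to 68.5 CPM (WT) and 83.0 to 180.4 CPM (knockout), and the keratin genes Krt8 and Krt18 made up most of each. Krt8 did not pass (means 27.7 and 49.3 CPM, limma adjusted p = 0.0524). The keratin gene Krt18 had 30.0, 33.0 and 30.7 CPM in WT against 41.6, 50.9 and 97.7 CPM in Smchd1 KO, with replicate 3 highest. For Krt18 the call was lost without WT replicate 1, 2 or 3 (adjusted p = 0.0830 to 0.101). Cdx2, the defining trophoblast factor, fell to 0.190, 0.290 and 0.104 CPM from 0.994, 0.791 and 1.31 CPM. Among untested trophoblast markers, the mean of Gcm1 went from 0.418 to 0.140 CPM and that of Elf5 from 0.0647 to 0.0414 CPM. Plac1 went the other way (0.204 to 0.274 CPM), and Tpbpa was near 0. Gata3 and Hand1 did not pass, and Krt7 was called higher. Mesoderm markers summed to 11.0 to 12.5 CPM in WT and 9.21 to 12.7 CPM, neural markers to 103 to 107 CPM in WT and 63.0 to 102 CPM and blood markers to 0.979 to 1.42 CPM in WT and 1.32 to 1.84 CPM. The 12 ES cell markers summed to 5462 to 5521 CPM in WT and 5223 to 5731 CPM in Smchd1 KO, a sum that hides changes in both directions. Of these 12, 5 fell: Zfp42 (-0.40), Klf4 (-0.64), Utf1 (-0.29), Lin28a (-0.38) and Sall4 (-0.49), as log2 changes. The 2 that rose were Tdgf1, the most abundant, and Fgf4. Prl3d1 of trophoblast and Hbb-b1 of blood were at 0 in all 6 samples. The part of any such cells in the changes above was not tested.

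In the wider fibroblast and mesenchyme list 8 of 22 rose and 3 fell (36.4% and 13.6%, against 21.2% and 22.9% of all genes). The 8 rises became 4 without WT replicate 1. The 3 falls became 7 without Smchd1 KO replicate 2. In the trophoblast list 7 of 20 rose and 3 fell (35% and 15%), and the median (0.13) changes sign under other scalings. The 7 rises became 1 without WT replicate 3 and 2 without WT replicate 1 or 2. The 3 falls became 5 without Smchd1 KO replicate 3.

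Epithelial junction genes rose in 15 of 33 cases and fell in 5 (45.5% and 15.2%, against 21.2% and 22.9% of all genes). The median was 0.36 and the replicate medians were 0.19, 0.29 and 0.56. The 15 rises became 5 without WT replicate 1, 6 without WT replicate 2 and 7 without WT replicate 3. The 5 falls became 1 without WT replicate 1, 2 or 3 and 3 without Smchd1 KO replicate 1. Crb3, a polarity gene, rose 1.75-fold from 6.24 ± 0.356 to 11.5 ± 2.85 CPM. Mesoderm and streak genes fell in 8 of 23 cases and rose in 3. The 3 rises became 1 without WT replicate 1 or 2 or Smchd1 KO replicate 1. The 8 falls became 3 without WT replicate 2, 4 without WT replicate 1 and 5 without WT replicate 3. The neural list had 6 rises and 2 falls of 21 (28.6% and 9.52%), with the low genes Irx3 (1.99-fold) and Dlx3 (1.75-fold) rising from WT means of 0.980 and 0.842 CPM. Its median (0.085) changes sign under other scalings. The 2 falls became 1 without WT replicate 1 or 3 and 7 without Smchd1 KO replicate 2.

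Genes for ribosomal proteins of the cytosol changed little and almost all in the same direction. Of 76 tested, 54 rose and 1 fell (71.1% and 1.32%), with a median of 0.18 and replicate medians of 0.14, 0.22 and 0.19. The 54 rises became 33 without WT replicate 1 and 34 without WT replicate 3. The 1 fall became 2 without Smchd1 KO replicate 2. Rps27 had 386, 403 and 380.0 CPM in WT against 490.4, 507 and 491 CPM in Smchd1 KO (1.27-fold, adjusted p = 0.000849). The fall was that of Rps4y2, on chromosome 6 (-0.59, and -0.46 without Smchd1 KO replicate 2). Transcripts of the mitochondrial genome fell in 4 of 7 cases and rose in 1. The 1 rise became 0 without WT replicate 1, 2 or 3 and 2 without Smchd1 KO replicate 2. Cytochrome b, mt-Cytb, had 4853, 4787 and 4954 CPM in WT against 3646, 3189 and 3521 CPM in Smchd1 KO (1.41-fold lower, adjusted p = 0.00156). The riser, mt-Nd6, is encoded on the other strand from most of them.

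Histone genes that are expressed during DNA replication, whose transcripts lack a poly(A) tail and are kept by ribosomal depletion, fell in 30 of 62 cases and rose in 6 (48.4% and 9.68%; median -0.20). Replicate 2 had a median of -0.05, against -0.23 and -0.27, and without it 45 fell. The 6 rises became 3 without WT replicate 1 or 3. Hist2h2ac had 73.0, 71.1 and 77.5 CPM in WT against 29.9, 31.4 and 29.7 CPM in Smchd1 KO (2.41-fold, SE 0.0503, adjusted p = 0.000128) and Hist2h4 had 131, 134 and 128 CPM in WT against 52.2, 65.9 and 54.1 CPM in Smchd1 KO (2.28-fold, adjusted p = 0.000338). The groups were far apart in both genes. Hist2h2ac shares 38.6% of its words with another gene, and copies of this family cannot be fully told apart.

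Cell cycle genes had no common direction, with 14 of 50 higher and 15 lower (28.0% and 30.0%), and the median changes sign under other scalings. The 14 rises became 9 without WT replicate 1 or 3. The 15 falls became 7 without WT replicate 1 or 3 and 9 without WT replicate 2. The CDK inhibitors Cdkn2b and Cdkn2c rose 2.16-fold and 1.73-fold, and the pocket protein gene Rbl2 had 22.1, 22.9 and 21.8 CPM in WT against 40.6, 42.5 and 40.8 CPM in Smchd1 KO (1.83-fold, adjusted p = 0.000322). Cyclin D1, Ccnd1, had 147, 139 and 146 CPM in WT against 72.7, 105 and 84.1 CPM in Smchd1 KO (1.66-fold lower, adjusted p = 0.00333).

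Of the oxidative stress list 13 of 29 fell and 6 rose (44.8% and 20.7%, against 22.9% and 21.2% of all genes). Srxn1, a sulfiredoxin regulated by NRF2, had 66.3, 62.6 and 63.9 CPM in WT against 30.9, 35 and 26.9 CPM in Smchd1 KO (2.07-fold lower, adjusted p = 0.000466). Gpx3, a secreted glutathione peroxidase, rose 1.78-fold. Heat shock and folding genes fell in 12 of 30 cases and rose in 6 (40% and 20%). With or without a call, 15 had a positive change and 15 a negative one, and the median (-0.015) changes sign under other scalings. The 6 rises became 12 without Smchd1 KO replicate 2. The 12 falls became 7 without WT replicate 3. The cytosolic chaperone gene Hsph1 fell 1.58-fold, opposite to Hspa1a.

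Calls among cholesterol genes depended on single samples. In all 6 samples 6 of 33 rose and 5 fell (18.2% and 15.2%, under the shares of all genes), with a list median of -0.12 in Smchd1 KO replicate 2 against 0.23 and 0.27 in the others. The 6 rises became 1 without WT replicate 1, 2 or 3 or Smchd1 KO replicate 1, 2 without Smchd1 KO replicate 3 and 24 without Smchd1 KO replicate 2. The 5 falls became 3 without WT replicate 3. Insig1, the sterol sensor, had 72.3, 75.6 and 75.9 CPM in WT against 148, 90.0 and 158 CPM in Smchd1 KO: replicates 1 and 3 were high and replicate 2 was close to WT. For Insig1 the call was lost without WT replicate 1, 2 or 3 or Smchd1 KO replicate 1 (adjusted p = 0.0531 to 0.0601). The retinoic acid list had 7 falls and 2 rises of 21 (33.3% and 9.52%, against 22.9% and 21.2% of all genes). Its median (-0.03) changes sign under other scalings. The 2 rises became 1 without WT replicate 1 or 3 or Smchd1 KO replicate 1, 4 without Smchd1 KO replicate 2 and 5 without Smchd1 KO replicate 3. Among the falls was the receptor Rarg (1.46-fold lower, from 219 ± 6.84 to 150.2 ± 19.19 CPM). Ion channel and synapse genes rose in 9 of 43 cases (20.9%, against 21.2% of all genes) and fell in 1. The 1 fall became 2 without Smchd1 KO replicate 1 and 6 without Smchd1 KO replicate 2. The calcium channel gene Cacna1s rose 2.68-fold and the NMDA receptor gene Grin1 2.54-fold from 4.95 ± 0.988 CPM.

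Contractile and serum response factor targets had 4 rises and 2 falls of 30 (13.3% and 6.67%, under the shares of all genes). The 4 rises became 2 without WT replicate 1, 2 or 3 and 7 without Smchd1 KO replicate 1. The 2 falls became 0 without WT replicate 1, 1 without WT replicate 2 or 3, 5 without Smchd1 KO replicate 3 and 8 without Smchd1 KO replicate 2. Erythroid genes had 4 rises and 3 falls of 15 (26.7% and 20%, near the shares of all genes). The 4 rises became 1 without WT replicate 1 and 2 without WT replicate 2 or 3 or Smchd1 KO replicate 1. The rise of the beta spectrin Spnb1 (0.68) stood opposite to the fall of Spna1. Spnb1 had 21.6, 22.5 and 22.5 CPM in WT against 38.1, 24.9 and 48.6 CPM in Smchd1 KO, with replicate 2 near WT, and the call was lost without WT replicate 1, 2 or 3 or Smchd1 KO replicate 1 or 3 (adjusted p = 0.0590 to 0.105).

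**Figure D5:**
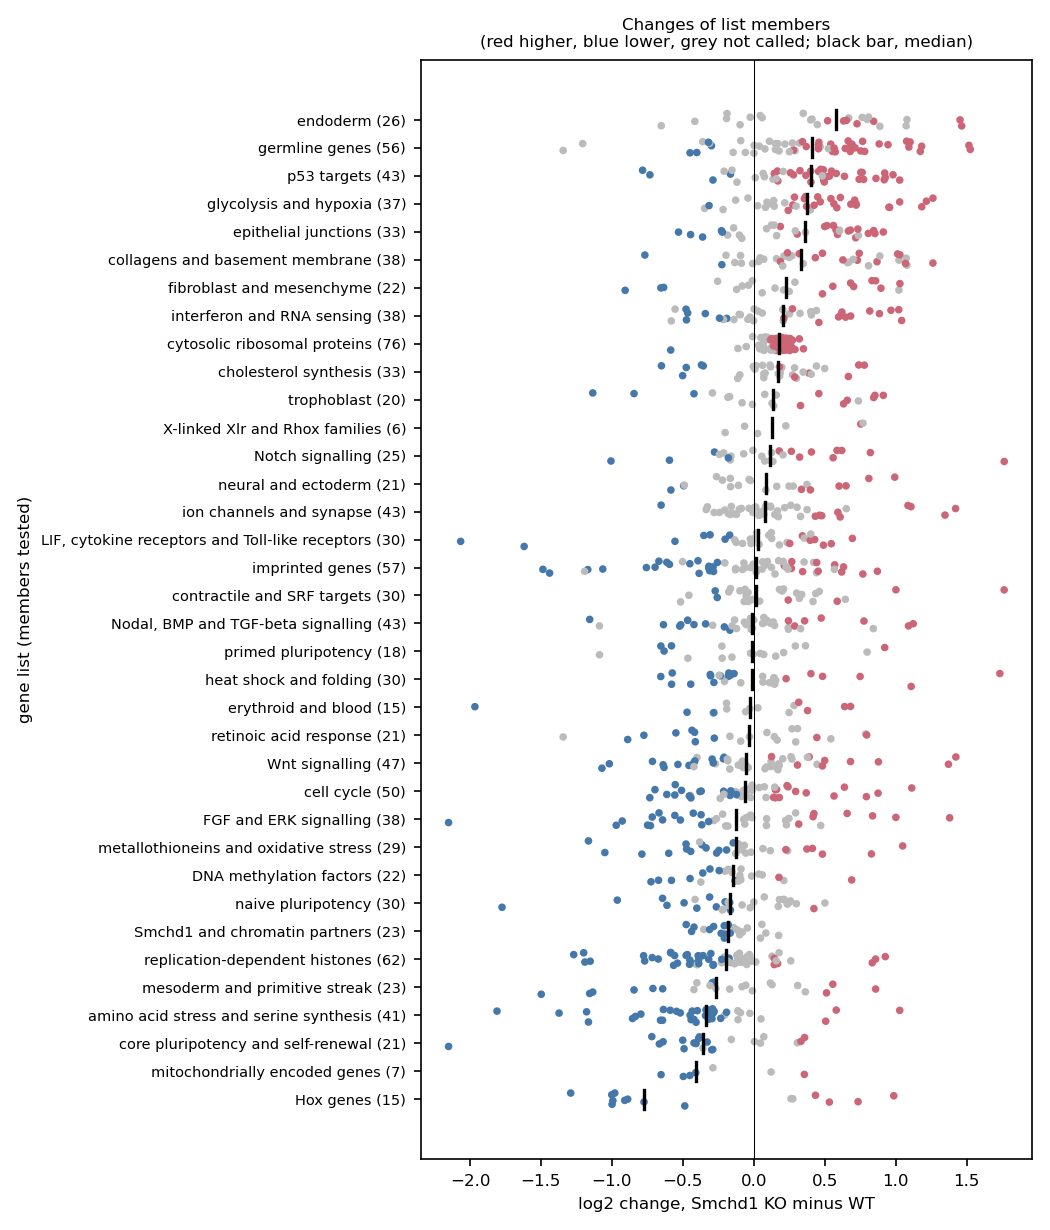
Log2 change between Smchd1 KO and WT (horizontal axis) of every tested member of each gene list except the protocadherins and the 2-cell-stage genes (vertical axis, number tested in brackets), red for genes called higher, blue for lower and grey for not called, with a black bar at the median. Amino acid genes lie mostly left of 0 (31 of 41 lower), and p53 targets (29 of 43 higher) and glycolysis and hypoxia genes (23 of 37 higher) mostly right of it.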

How the data were processed

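RNA of 3 WT and 3 Smchd1 KO samples was analysed. The deposited table holds a normalized signal per gene (CPM by its name), which the authors made from read counts divided by an effective library size. Per the submitters' processing notes, Trim Galore, STAR 2.5.1, limma 3.38.2 and mm9 were used; the counter, annotation and filters are not given in the sources used here. The 2 runs of a sample were averaged. WT columns name their replicate and run through the titles; Smchd1 KO columns give only a running number, so runs were joined in the same order as in WT, and each Smchd1 KO replicate number rests on that assumption. The noise ratio was 1.35 to 1.56 within the joined Smchd1 KO pairs and 3.29 to 13.1 between them. Whole reads were recovered for 100% of values (within 0.1 read, values under 200 reads), and edgeR 4.0.16 on them called 3627 genes higher and 3389 lower.

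Genes that reached 0.5 CPM in 3 or more of 6 samples were tested as log2(CPM + 0.5) with limma 3.58.1 in R 4.3.3, on these 2 groups alone. A fold change on this scale understates that of low genes. A call is a Benjamini-Hochberg adjusted p under 0.05, from limma wherever an adjusted p is printed. DESeq2 1.42.0, edgeR, other scalings, filters and pseudocounts, and leaving out each replicate were the alternatives. Summaries used python 3.11.15.

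Named by rule were the 15 largest rises and falls outside the 2-cell-stage list that were called in every leave-one-out fit without overlap, up to 4 genes a list, the most abundant marker of each cell type, and Smchd1, Dux, Xist, Nanog, Pou5f1 and Sox2. Other genes, the promoters and the searched element were chosen after values were seen. The comparison and the 37 lists were chosen with earlier results of these data known. Samples with the same replicate number did not deviate together (correlations -0.05, -0.04 and 0.03), so numbers were not treated as pairs. A check of promoter CpG content was void, since 65.6% of tested genes matched a promoter. The tests were tried on simulated counts drawn with the same spread in both groups. The wider spread of the Smchd1 KO samples (median SD 0.120, against 0.046 in WT) was not simulated, so that trial does not cover it. Results for some genes are not reported here.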

Additional observations from a re-analysis of the deposited data

How the results depend on the processing

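The counts of called genes depend most on which samples share the estimate of the spread. With 4 genotypes in the fit, 105 genes were higher and 39 lower, of which 104 and 36 were past 1.5-fold. With a pseudocount of 2, 621 were higher and 323 lower by at least 1.5-fold. Leaving out 1 replicate gave 1990 (without WT replicate 1) to 4265 (without Smchd1 KO replicate 2) genes higher and 2191 (without WT replicate 3) to 4590 (without Smchd1 KO replicate 2) lower. Without WT replicate 3, 2046 were higher, and without WT replicate 1, 2207 were lower. With a replicate block, 2775 were higher and 2981 lower, and 1206 and 509 past 1.5-fold. The share of rises among 1.5-fold calls was 70.3%, and was 55.7% with quantile normalization, 65.4% with sample medians set equal, 73.9% in edgeR and 74.3% with 4 genotypes. Quantile normalization moved more list medians than any other setting. It took mitochondrially encoded genes from -0.41 to -0.17 and core pluripotency genes from -0.36 to -0.24. Smaller shifts were those of amino acid genes (-0.34 to -0.29), p53 targets (0.40 to 0.37) and glycolysis and hypoxia genes (0.37 to 0.38). Of the 156 genes named by rule, 125 lost their call with 4 genotypes and 31 did not change side, and the 148 called were also called in edgeR. Acta2, which was not called, turned from a higher to a lower level without Smchd1 KO replicate 2 (log2 change -0.25, against a highest value of 0.46 without Smchd1 KO replicate 3). The causes were not tested. Depth of 11399770 to 74448358 reads a run limits genes under 0.5 CPM, which were not tested.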

Other observations

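Genes of antigen presentation and of the Y chromosome were chosen after their values were seen. Of 27 tested genes of the major histocompatibility complex (class I and class II) and antigen processing, 12 rose and 2 fell. Over all tested genes 21.2% rose and 22.9% fell. The median log2 change of the 27 was 0.35 (0.23 to 0.51 under other scalings), and 14 rose without Smchd1 KO replicate 2. The rises include the class II genes H2-DMb1, H2-Oa and H2-Ab1, and the class I genes H2-K1 (-0.00) and H2-D1 (0.21) did not pass. H2-DMb1, which loads peptides on class II molecules, and the peptide transporter genes Tap1 and Tap2 lie side by side and all rose at least 1.5-fold. Of 6 tested Y-linked genes 5 were called higher, with a median of 0.59, and 4 without Smchd1 KO replicate 3. For Uty and Ddx3y the call was lost on leaving out 1 replicate (highest adjusted p = 0.0519 and 0.129 in limma), and none of the 6 passed in the fit of 4 genotypes (lowest adjusted p = 0.0793, for Zfy1, which passed the filter on low values only through Smchd1 KO).

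Changed genes also lay in runs. Runs of at least 3 neighbouring tested genes, within 500 kb of each other and all changed at least 1.5-fold in the same direction, numbered 29, of which 7 held a gene of the 2-cell-stage list. Of the other 22, 19 rose and 3 fell. The risen runs included Clu, Gulo, Ephx2 and Ptk2b on chromosome 14, Cyp2j13, Cyp2j6 and Cyp2j9 on chromosome 4, and Oas3, Oas1c, Oas1b and Oas1g on chromosome 5. The fallen runs were 6 Hoxa genes on chromosome 6, Hist2h4, Hist2h3b and Hist2h2bb on chromosome 3, and Snora41, Gm11607 and Zdbf2 on chromosome 1. How many such runs other orders of the genes would give was not tested.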
